A study of Homo sapiens with 4 samples.

Results

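The genes described here are 8 regulators and markers of the mesenchymal state of glioblastoma: the transcription factor genes STAT3, CEBPB, CEBPD, RUNX1 and BHLHE40, the coactivator gene WWTR1, and the marker genes CHI3L1 and CD44. They were taken by name, using every probe set (a group of array probes read as 1 value) whose gene symbol was exactly 1 of these. That gave 24 probe sets of 7 genes, out of 44988 single-symbol probe sets of 18132 genes on the array. RUNX1 had 0 such probe sets, because all 8 probe sets that carry its symbol also carry a second one, so its level is not reported. In RefSeq (GRCh38.p14) the genes span chr17:42313324-42388442 (STAT3), chr20:50190583-50192690 (CEBPB), chr8:47736913-47738164 (CEBPD), chr21:34787801-35049302 (RUNX1), chr3:4979437-4985323 (BHLHE40), chr3:149517235-149724788 (WWTR1), chr1:203178931-203186704 (CHI3L1) and chr11:35139171-35232402 (CD44).

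In glioblastoma, the mesenchymal state is an inflamed, wound-like and invasive pattern of expression that contrasts with the proneural pattern, which resembles neural and oligodendrocyte progenitors. Network studies of human tumours placed STAT3 and C/EBP-beta at the top of the mesenchymal program, with RUNX1, BHLHE40 and C/EBP-delta among the further regulators, and TAZ, the product of WWTR1, was linked to the same state as a partner of TEAD factors. CHI3L1, which is secreted, and CD44, on the cell surface, are markers by which mesenchymal tumours are often recognised.

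The samples were 4 arrays of U87MG, an established human glioblastoma line, which limits the data to 1 line. In the NeuroD2 group (2 arrays) the cells received an expression vector for NeuroD2, a basic helix-loop-helix transcription factor of neuronal differentiation that binds E-box DNA. In the control group (2 arrays) they received a control vector labelled PCMV. All 4 cultures shared 0.2% oxygen, so none of them was normoxic, and RNA was taken 48 hours after transfection. The labels number the arrays of each group as biological replicates 1 and 2 without saying how the cultures were kept apart, so p-values measure the spread between these arrays. The share of cells that took up the vector is not given in the sources used here. In these bulk samples a change in all cells and a larger change in some of them cannot be told apart.

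NEUROD2 checked the labels: on its brightest probe set the values were 7.37 and 7.82 on the NeuroD2 arrays, against 5.46 and 5.35 on the control arrays (log2; difference 2.19, adjusted p = 0.0044), while its other probe sets differed by -0.21 and -0.07. CDKN2A, a gene known to be deleted in U87MG, read between 4.56 and 4.77 on the 4 arrays, below the median level of all genes (6.56). Of 22 measured markers of microglia, endothelium, oligodendrocytes, lymphocytes and epithelium, 20 lay below that median on every array and 0 passed the adjusted threshold in limma, with summed log2 levels of 105.8 to 106.1 on the NeuroD2 arrays and 104.3 to 106.4 on the control arrays. The intermediate filament marker VIM read 14.12 to 14.18, while the glial marker GFAP read 6.35 at most. The 18 hybridisation spikes, control RNAs added to every sample, read higher on each NeuroD2 array than on either control array, with a mean difference of 0.39, or 0.22 when control replicate 1 is left out. The 24 poly-A spikes, added before labelling, averaged 7.96 and 8.03 on the NeuroD2 arrays, against 6.95 and 7.98 on control replicates 1 and 2.

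CEBPB and CEBPD, the genes of the transcription factors C/EBP-beta and C/EBP-delta, rose with the NeuroD2 vector, and CHI3L1, which encodes the secreted chitinase-like glycoprotein YKL-40, fell. The CHI3L1 values with NeuroD2 lay near those of the deleted gene CDKN2A. STAT3, BHLHE40, WWTR1 and CD44 did not pass on the probe sets that represent them. Each gene was represented by its brightest probe set, differences are NeuroD2 minus control on the log2 scale, and a gene was called at a Benjamini-Hochberg adjusted p below 0.05 in limma over all genes. Of the 7 measured members 3 were called, 2 higher and 1 lower, where 4.77% of all 18132 genes were called, 1.81% higher and 2.96% lower. At an unadjusted p below 0.05 the same 3 passed, 2 of them higher (9.27% of all genes were higher at that level), and the groups did not overlap for 4 of the 7, against 50.8% of all genes. The median difference was 0.015 over the 7 members and 0.00 over all genes. None of the 3 calls held without any 1 of the 4 arrays, although each direction did, and unadjusted p-values without 1 array lay between 0.00406 and 0.0128.

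**Figure D1:**
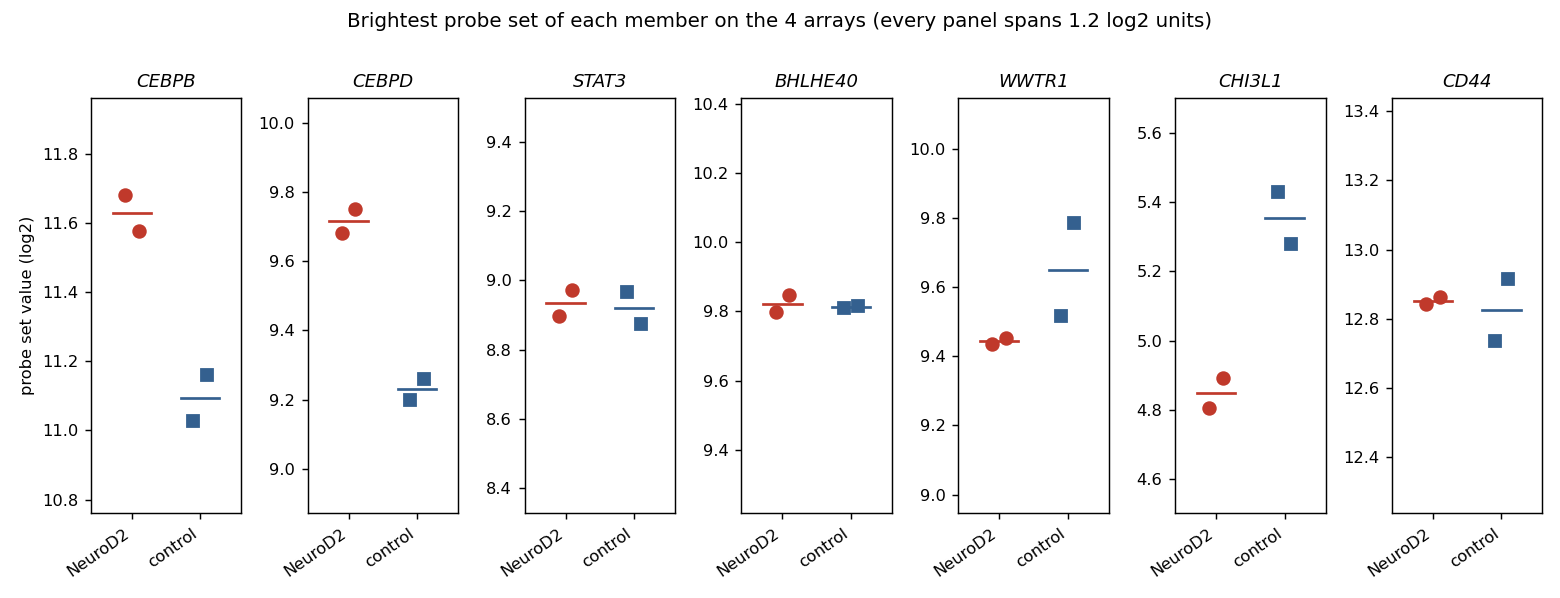
Log2 value of the brightest probe set of each of the 7 measured members on the 4 arrays, with the 2 NeuroD2 arrays (circles) left of the 2 control arrays (squares) and the mean as a line. Levels cannot be compared between panels, since each is another probe set. The groups stand apart for CEBPB, CEBPD, WWTR1 and CHI3L1, and overlap for STAT3, BHLHE40 and CD44.

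C/EBP-beta is a leucine zipper factor of the acute-phase and inflammatory response. Its single probe set (11743077_s_at) read 11.68 and 11.58 on the NeuroD2 arrays, against 11.03 and 11.16 on the control arrays. Both NeuroD2 arrays lay above both control arrays, and the gap between the groups exceeded the gaps within them (0.10 and 0.13). CEBPB averaged 11.63 ± 0.07 with NeuroD2 and 11.10 ± 0.09 with the control vector (SD, n = 2 each). The difference was 0.53 (95% interval 0.32 to 0.75, standard error 0.09, adjusted p = 0.0333), which is 1.45-fold. Its suffix, s_at, is used where probes may also match other transcripts.

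C/EBP-delta binds the same DNA sites and is itself induced by cytokines. On the brightest of its 5 probe sets (11752869_s_at) CEBPD read 9.68 and 9.75 with NeuroD2, against 9.20 and 9.26 with the control vector. CEBPD averaged 9.72 ± 0.05 with NeuroD2 and 9.23 ± 0.04 with the control vector (SD, n = 2 each). The difference was 0.49 (95% interval 0.30 to 0.67, standard error 0.08, adjusted p = 0.0308), or 1.40-fold. On all 5 probe sets both NeuroD2 values exceeded both control values, with differences from 0.33 to 0.63. When every probe set of the array was fitted on its own, 4 of the 5 passed, and the dimmest (11764030_x_at, 6.22 and 6.06 against 5.88 and 5.74) did not (0.33, adjusted p = 0.139). Only 11764029_at among them carries neither the suffix s_at nor x_at. It differed by 0.43 (adjusted p = 0.0493 in limma) and did not pass with a robust prior (adjusted p = 0.0536). The 5 probe sets read the same short, intronless gene and are not replicates of each other.

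CHI3L1 moved the other way. Its single probe set (11756316_a_at) read 4.80 and 4.89 on the NeuroD2 arrays, against 5.43 and 5.28 on the control arrays. Both NeuroD2 values were below both control values. CHI3L1 averaged 4.85 ± 0.06 with NeuroD2 and 5.36 ± 0.11 with the control vector (SD, n = 2 each). It fell by 0.51 (95% interval -0.72 to -0.29, standard error 0.09, adjusted p = 0.0383), or 1.42-fold lower. This direction is opposite to that of the hybridisation spikes, whereas CEBPB and CEBPD moved in the same direction as the spikes (mean difference 0.39). Without control replicate 2 the spikes differed by 0.56, CEBPB by 0.60, CEBPD by 0.52 and CHI3L1 by -0.58. Without control replicate 1 the spikes differed by 0.22, CEBPB by 0.47, CEBPD by 0.46 and CHI3L1 by -0.43. What part the spikes' shift has in any of these differences was not tested. The CHI3L1 level was below the median of all genes on every array. With NeuroD2 it was close to that of CDKN2A, the deleted gene, which read 4.56 to 4.77 on its brightest probe set. The fall of CHI3L1 therefore lies near the level of an absent transcript. Levels of different probe sets cannot be compared exactly and detection calls are not used here. How far CHI3L1 stood above background is thus not known exactly.

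The sequence before the annotated start is shown for the CEBPB and CHI3L1 genes, which moved in opposite directions, and for BHLHE40, which did not pass, because NeuroD2 binds E-boxes. Each line gives the 250 bases before a RefSeq start (GRCh38.p14), 5′ to 3′ on the gene's strand, with E-boxes (CANNTG, which reads the same on both strands) in capitals. The CEBPB line is chr20:50190333-50190582 (plus strand), the CHI3L1 line chr1:203186705-203186954 (minus strand) and the BHLHE40 line chr3:4979187-4979436 (plus strand).

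CEBPB: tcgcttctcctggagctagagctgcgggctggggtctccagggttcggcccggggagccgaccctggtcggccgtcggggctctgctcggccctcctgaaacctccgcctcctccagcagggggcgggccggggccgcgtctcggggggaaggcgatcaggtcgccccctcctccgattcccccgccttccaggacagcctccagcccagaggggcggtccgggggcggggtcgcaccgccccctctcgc
CHI3L1: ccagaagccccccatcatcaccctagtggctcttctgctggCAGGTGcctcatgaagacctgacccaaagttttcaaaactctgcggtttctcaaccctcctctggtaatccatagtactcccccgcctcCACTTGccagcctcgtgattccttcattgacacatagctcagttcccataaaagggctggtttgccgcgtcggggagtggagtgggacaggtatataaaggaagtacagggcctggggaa
BHLHE40: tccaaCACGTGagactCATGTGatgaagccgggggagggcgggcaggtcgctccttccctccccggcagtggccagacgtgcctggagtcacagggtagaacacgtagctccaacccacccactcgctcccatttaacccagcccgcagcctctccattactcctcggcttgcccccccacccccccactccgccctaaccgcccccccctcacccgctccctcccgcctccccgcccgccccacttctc

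CEBPB held 0 E-boxes here. CHI3L1 held 2, CAGGTG at bases 209 to 204 before the start and CACTTG at bases 120 to 115. BHLHE40 held CACGTG, the form that its own protein binds, at bases 245 to 240 and CATGTG at bases 234 to 229, and its full window, which runs on past the start, held 3 E-boxes in all. Over the full windows of 300 bases, which add 50 bases after the start, an E-box was found in 68.7% of the 35116 RefSeq windows, so its presence in 1 window carries little information. RefSeq windows were matched for 7 of the 8 genes, with a pair of starts each for CEBPB and WWTR1. CEBPD had no window, so the motif counts do not cover it. The full windows of STAT3, RUNX1 and CD44, the other CEBPB window and 1 of the WWTR1 windows held 0 E-boxes. The remaining WWTR1 window held 2, of which 1 was CAGATG, a form bound by neurogenic factors that 14.7% of windows hold on either strand, and CAGCTG (17.9% of windows) was found in 0 of the members' windows. The STAT motif TTCNNNGAA (7.66% of windows) and the C/EBP motif TTGCNNAA (10.5%), searched on both strands, were likewise found in 0. RUNX (TGTGGT) and TEAD (GGAATG) motifs, in 13.1% and 14% of windows, each had 1 match, in a WWTR1 and in the RUNX1 window. These matches are letters in a window and not measured binding.

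STAT3, the factor that cytokines of the interleukin-6 type activate by phosphorylation, did not pass on any of its 3 probe sets. The brightest (11720755_at) read 8.90 and 8.97 with NeuroD2, against 8.97 and 8.88 with the control vector, so the groups overlapped (0.015, 95% interval -0.18 to 0.21, adjusted p = 0.95). The other probe sets were higher on both NeuroD2 arrays. On 11750674_a_at the NeuroD2 values were 8.74 and 8.84, against control values of 8.52 and 8.58 (0.24, adjusted p = 0.189 among all probe sets), and on 11720756_at they were 8.46 and 8.50 against control values of 8.13 and 8.33 (0.25, adjusted p = 0.226). STAT3 activity depends on phosphorylation, which these arrays do not measure. The mean of the 3 probe sets differed by 0.17 (adjusted p = 0.229).

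BHLHE40, a helix-loop-helix repressor of the clock and hypoxia response, had the smallest difference of the 7 members. Its probe set (11725983_at) read 9.80 and 9.85 with NeuroD2 and 9.81 and 9.82 with the control vector, with overlapping groups. It differed by 0.01 (95% interval -0.17 to 0.19, adjusted p = 0.971), so a change as large as that of CEBPB lay outside the interval.

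WWTR1, whose product TAZ carries the output of the Hippo pathway, had probe sets that differed in sign. The brightest (11759483_at) read 9.43 and 9.45 with NeuroD2, against 9.52 and 9.78 with the control vector. It was lower on both NeuroD2 arrays but did not pass (-0.21, 95% interval -0.47 to 0.05, adjusted p = 0.329), and the gap between the control arrays was 0.27. Leaving out control replicate 1 gave -0.34, and leaving out control replicate 2 gave -0.07. On 11755099_a_at the NeuroD2 values were 8.41 and 8.34, against control values of 8.34 and 8.21 (0.10, adjusted p = 0.592). The groups overlapped on 11759482_at (7.94 and 7.88 against 7.90 and 8.23, difference -0.15, adjusted p = 0.565).

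CD44 is the hyaluronan receptor and was read by 10 probe sets, of which none passed after adjustment. The brightest (11715916_a_at) read 12.84 and 12.86 with NeuroD2, against 12.74 and 12.92 with the control vector (0.03, 95% interval -0.19 to 0.24, adjusted p = 0.914). The groups overlapped on it. All 10 probe sets had a positive difference, and on 8 of them both NeuroD2 values exceeded both control values, as on 24.9% of all probe sets. The brightest probe sets, 11715916_a_at, 11744654_s_at and 11715917_a_at, had the 3 smallest differences, 0.03 to 0.08. The other 7 ran from 0.18 to 0.31, and 5 of them had an unadjusted p below 0.05 (9.37% of all probe sets did so with a higher NeuroD2 mean). The largest difference was on 11742043_a_at, with 11.32 and 11.27 in NeuroD2 cells against 10.91 and 11.06 in control cells (0.31, adjusted p = 0.13). CD44 is spliced into many isoforms, and which of them each probe set reads is not given in the tables used. With an intensity trend in limma's prior, 5 of the 10 passed (adjusted p from 0.0111 to 0.0221). In that setting 3797 of all 44988 probe sets passed, against 1361 without the trend. The mean of all 10, fitted without the trend, did not pass (0.20, adjusted p = 0.173 in limma). The 10 probe sets read 1 gene and are not replicates of each other.

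**Figure D2:**
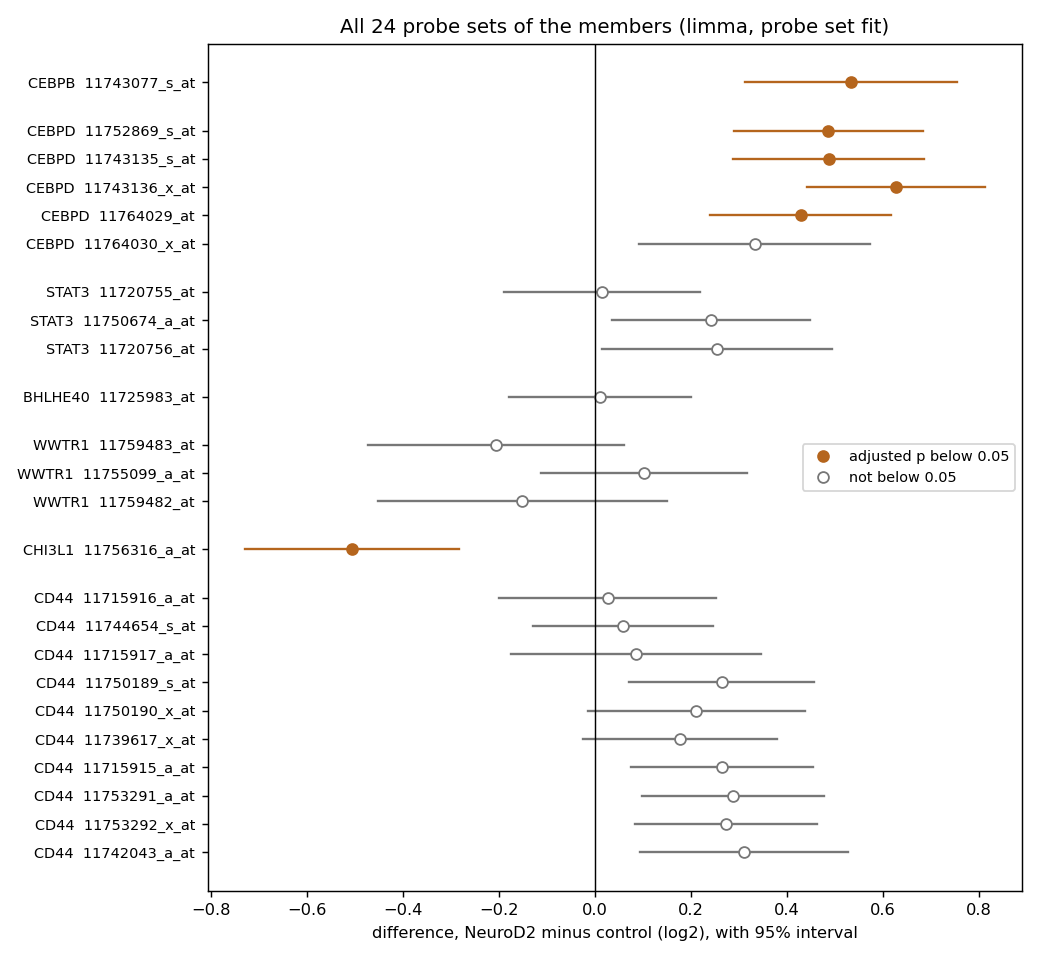
Difference between NeuroD2 and control arrays (log2, points) with its 95% interval (lines) for all 24 probe sets of the 7 measured members, ordered by gene and then by level, from a limma fit over all probe sets. Filled points passed an adjusted p below 0.05: CEBPB, 4 of 5 for CEBPD, and CHI3L1. All 10 CD44 points are above 0 and open.

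Over all 24 probe sets of the members 6 were called, 5 higher and 1 lower, where 3.03% of all probe sets were called, 1.32% higher and 1.7% lower. At an unadjusted p below 0.05 there were 14, against 19.9% of all probe sets. The groups did not overlap on 19 of the 24, against 49.4% of all probe sets. With 1 probe set each for CEBPB and CHI3L1 and 4 for CEBPD, these 6 calls stand for 3 genes. The adjusted p of the CHI3L1 probe set in that fit, 0.04998, lay at the threshold. Differences were positive on 21 of the 24 and negative on those of CHI3L1 and on 2 of WWTR1. Their median was 0.25, against 0.01 over all probe sets, but 15 of the 24 belong to CD44 and CEBPD.

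The patterns most like those of the called members were sought among 9060 other genes at or above the median level, by the Euclidean distance between gene-centred values on the 4 arrays. For CEBPB they were HINT3, TIPARP and SRPK1 (distance 0.04 to 0.06, differences 0.48 to 0.55). METTL2B, RREB1 and CELF1 were nearest to CEBPD, at distances of 0.03 with differences of 0.46 to 0.48. For CHI3L1 they were MID1, CHMP6 and TMEM184B (distance 0.03 to 0.04, differences -0.53 to -0.48). On 4 arrays this likeness rests mainly on the difference between the groups.

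Around the members, 9 lists of related genes were read in the same fit. They held 172 measured genes, some in more than 1 list, and 27 of them were called, where 4.77% of all 18132 genes were. All the lists were written with earlier results of these data known, so the shares called are no separate support for any pathway. Lists with 1 call among 15 to 18 genes (relatives, Hippo pathway, CD44 partners) lay near that share. Without control replicate 1 or without control replicate 2 none of the 27 was called, as no gene on the array was. Without NeuroD2 replicate 1 the calls of CCL2, CSF3, HAS2, IL1B, IL6, LIF and PTGS2 remained, and without NeuroD2 replicate 2 those 7 and CXCL8.

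Of 18 measured relatives and partners of the members 1 rose, 0 fell and 17 did not pass (median 0.11), a share near that of all genes. CEBPG, a C/EBP family member that pairs with the others, read 9.98 and 10.02 with NeuroD2, against 9.57 and 9.54 with the control vector, and rose by 0.44 (adjusted p = 0.0341). CEBPA (0.08) and CEBPE (0.12), the family genes of fat and myeloid cells, did not pass. CBFB, the partner subunit of RUNX factors, differed by -0.36 (adjusted p = 0.0565) and RUNX2 by -0.36 (adjusted p = 0.116). The 2 probe sets of RUNX2 differed in sign (-0.36 and 0.16), and their mean gave -0.10 (adjusted p = 0.538 in limma). DDIT3, the C/EBP-related stress gene, differed by 0.32 (adjusted p = 0.181). FOSL2, a further regulator of the mesenchymal program, and ZBTB18, a repressor of it, differed by 0.19 and 0.18 without passing. The 5 probe sets of FOSL2 differed in sign, from -0.43 to 0.21, and in the fit over all probe sets 1 of them was called lower. With an intensity trend 4 of the 18 passed, 1 higher and 3 lower, CBFB and RUNX2 among the lower ones. With dim genes left out not all 18 were tested, and again 4 passed, 1 higher and 3 lower, CBFB and RUNX2 among the lower ones.

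Genes that act upstream of STAT3 held several of the large rises, on a list also written with earlier results of these data known. Of 16 measured, 6 rose, 0 fell and 10 did not pass (median 0.13). LIF, a ligand of the gp130 receptor, read 11.87 and 11.83 with NeuroD2, against 10.36 and 10.26 with the control vector (1.54, or 2.91-fold, adjusted p = 0.00188). IL6 read 9.76 and 9.75 against 8.36 and 8.40 (1.37, adjusted p = 0.00203), and the mean of its probe sets gave 0.69. IL11, a related ligand, read 7.48 and 7.43 against 6.56 and 6.47 (0.94, adjusted p = 0.00687), and the mean of its probe sets gave 0.57. SOCS1 and SOCS3, feedback inhibitors of JAK kinases, rose by 0.56 and 0.44, and the oncostatin M receptor gene OSMR rose by 0.43. OSMR (adjusted p = 0.0492) did not pass with a robust prior or with every probe set on its own, and SOCS1 did not pass in the second of these. IL6R, the interleukin-6 receptor gene, differed by 0.68 with an adjusted p of 0.0547. The signal-transducing receptor gene IL6ST (0.17) and the kinase genes JAK1 (-0.15), JAK2 (0.00) and TYK2 (-0.22) did not pass. All 8 probe sets of IL6ST were positive, from 0.17 on the brightest to 0.53, and 1 of them was called higher in the fit over all probe sets.

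Among 16 STAT3 target genes, 2 rose, 0 fell and 14 did not pass (median 0.18). BCL6, a transcriptional repressor, read 10.25 and 10.22 with NeuroD2, against 9.45 and 9.44 with the control vector (0.79, adjusted p = 0.00885). The other was SOCS3, which the upstream list also holds. JUNB (0.33) and MYC (0.32), both transcription factor genes, and the survival gene BIRC5 (-0.38) did not pass, with adjusted p-values from 0.0611 to 0.0894. Of the 12 probe sets of BIRC5 1 was called lower in the fit over all probe sets, and BIRC5 passed with an intensity trend (adjusted p = 0.00613) and with dim genes left out (adjusted p = 0.0144). VEGFA and FOS did not pass in the fit over genes, but all their probe sets were positive. In the fit over all probe sets 4 of 10 for VEGFA (0.21 to 0.60) and 1 of 4 for FOS (0.19 to 0.53) were called higher. PIM1 (-0.16) and BCL3 (0.00), which STAT3 also induces, did not pass. When probe sets were averaged per gene, 6 of the 16 passed, all higher. With an intensity trend 7 passed as higher and 1 as lower, and with dim genes left out 6 passed as higher and 1 as lower.

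Among 17 C/EBP and acute-phase target genes, 7 rose, 1 fell and 9 did not pass (median 0.26). PTGS2, the inducible prostaglandin synthesis gene, had the largest difference (2.96), followed by the cytokine genes IL1B (2.36) and CSF3 (1.91), while the chemokine gene CCL2 fell by 1.64. These large changes were known from these data when the list was written, so they are no separate support. The complement gene C3 read 9.87 and 9.91 with NeuroD2, against 8.90 and 8.71 with the control vector (1.08, adjusted p = 0.00716). CXCL8 (1.09), a neutrophil chemokine gene, and TNFAIP6 (0.42), a hyaluronan-binding protein gene, rose too, TNFAIP6 not passing with a robust prior or with every probe set on its own. The liver acute-phase genes SAA1, SAA2, HP, CP, ORM1, LCN2 and SERPINA3 did not pass, with differences from -0.23 to 0.09 and values of 4.96 at most on any array.

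Of 16 Hippo pathway genes around WWTR1, 1 rose, 0 fell and 15 did not pass (median 0.09). TAOK1, an upstream kinase gene, read 5.72 and 5.89 with NeuroD2, against 5.15 and 5.19 with the control vector (0.64, adjusted p = 0.0228), while averaging its probe sets gave 0.41. YAP1, the coactivator most like TAZ, differed by 0.11, and the DNA-binding partner genes TEAD1 to TEAD4 by -0.19 to 0.07, none passing. The kinase genes LATS1 (0.46) and LATS2 (0.23) did not pass. Of 22 YAP and TAZ target genes, 1 rose, 1 fell and 20 did not pass (median 0.05). F3, the tissue factor gene, rose by 0.72 (adjusted p = 0.029) and CCN2, the connective tissue growth factor gene, fell by 0.67 (adjusted p = 0.0189). FJX1, a secreted growth regulator gene, differed by 0.37 (adjusted p = 0.0513) and passed under 5 of its alternatives, and NT5E, the ecto-nucleotidase gene, differed by 0.26 (adjusted p = 0.129) and passed under 3, with 1 of its 3 probe sets called higher. CCN1 (0.01), ANKRD1 (0.04) and AMOTL2 (0.01), targets often used to read YAP and TAZ activity and named after their values were seen, did not pass. With an intensity trend 5 of the 22 passed, 4 higher and 1 lower. With dim genes left out not all 22 were tested, and 5 passed, 4 higher and 1 lower.

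Around CD44, 1 of 15 measured genes rose, 0 fell and 14 did not pass (median -0.03). The gene that rose was HAS2, which encodes the synthase of hyaluronan, the CD44 ligand. HAS2 read 8.74 and 8.79 with NeuroD2, against 7.64 and 7.75 with the control vector (1.07, or 2.10-fold, adjusted p = 0.00516), and all 3 of its probe sets passed. HAS3, another synthase gene, differed by 0.29 (adjusted p = 0.157). ADAM10, a protease gene whose product sheds CD44, differed by -0.32 (adjusted p = 0.0847), and the ligand gene SPP1, the linker gene MSN and the protease gene MMP14 by -0.03, -0.02 and -0.03. CD74 differed by -0.29 (adjusted p = 0.13). All 5 of its probe sets were lower (-0.53 to -0.17), and 1 was called lower in the fit over all probe sets. With an intensity trend, or with dim genes left out, 3 of the listed genes passed, 1 higher and 2 lower, ADAM10 among the lower ones.

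Genes of the mesenchymal-like cell state moved in both directions. Of 42 measured, other than the members, 2 rose, 5 fell and 35 did not pass (median -0.03). C3, also on the C/EBP list, and NAMPT, an enzyme gene of NAD synthesis (12.32 and 12.40 with NeuroD2, 11.48 and 11.51 with the control vector, difference 0.87, adjusted p = 0.00759), were the ones that rose. IGFBP7, an IGF-binding matrix protein gene, read 8.98 and 8.94 with NeuroD2, against 9.89 and 10.02 with the control vector (95% interval of the difference -1.20 to -0.80, adjusted p = 0.00687), and so fell, but the mean of its 4 probe sets gave -0.37. EFEMP1, the fibulin-3 gene, read 6.20 and 6.06 against 6.94 and 7.16 (fell by 0.92, adjusted p = 0.014), with all 4 of its probe sets lower. GSN (-0.67), NNMT (-0.67) and FN1 (-0.63), which encode gelsolin, nicotinamide N-methyltransferase and fibronectin and are named here after their values were seen, fell as well. VIM (0.00), ANXA1 (0.05), ANXA2 (0.01), LGALS1 (-0.05) and S100A11 (0.00), bright mesenchymal-state genes chosen for mention in the same way, did not pass. TIMP1, a protease inhibitor gene on this list and the STAT3 list, differed by 0.28 (adjusted p = 0.119).

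**Figure D3:**
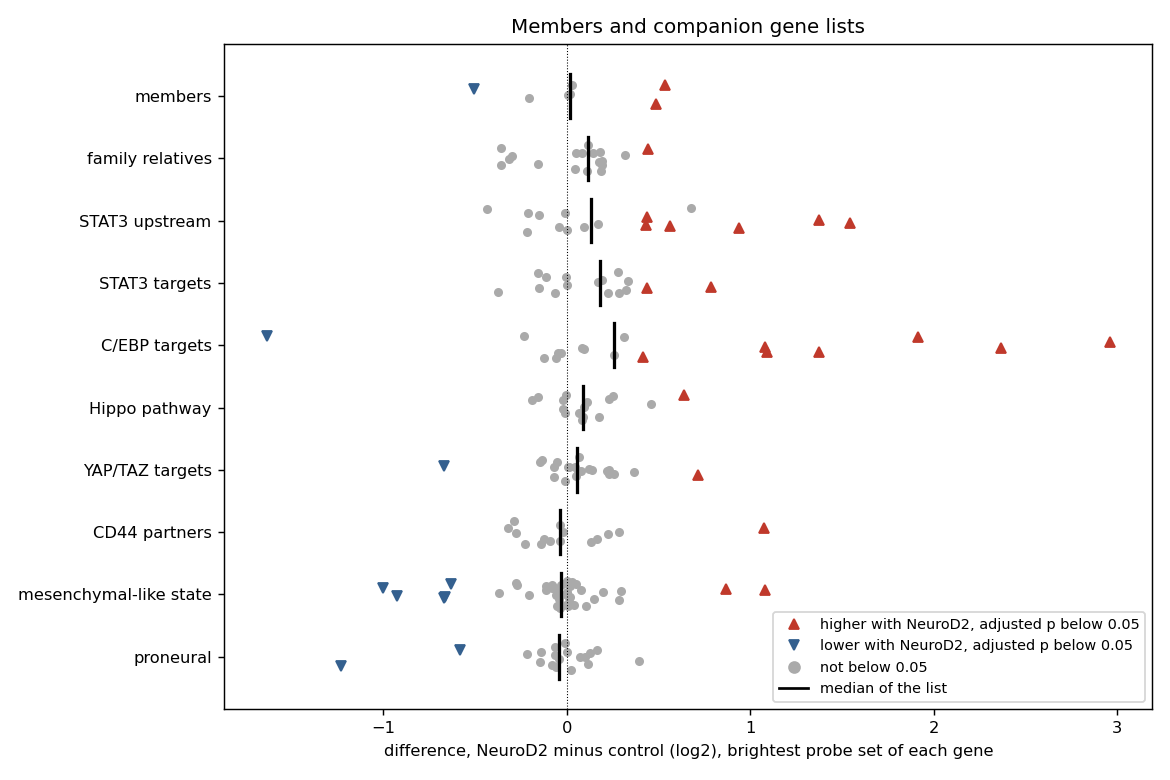
Difference between NeuroD2 and control arrays (log2, brightest probe set of each gene) for the 7 measured members and the genes of 9 related lists, with each list's median as a black line. Triangles passed an adjusted p below 0.05 in limma, pointing up where higher and down where lower with NeuroD2. The upward triangles lie mostly in the STAT3 upstream and C/EBP target lists, while the mesenchymal-like list has 2 upward and 5 downward. All lists were written with earlier results of these data known.

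**Figure D4:**
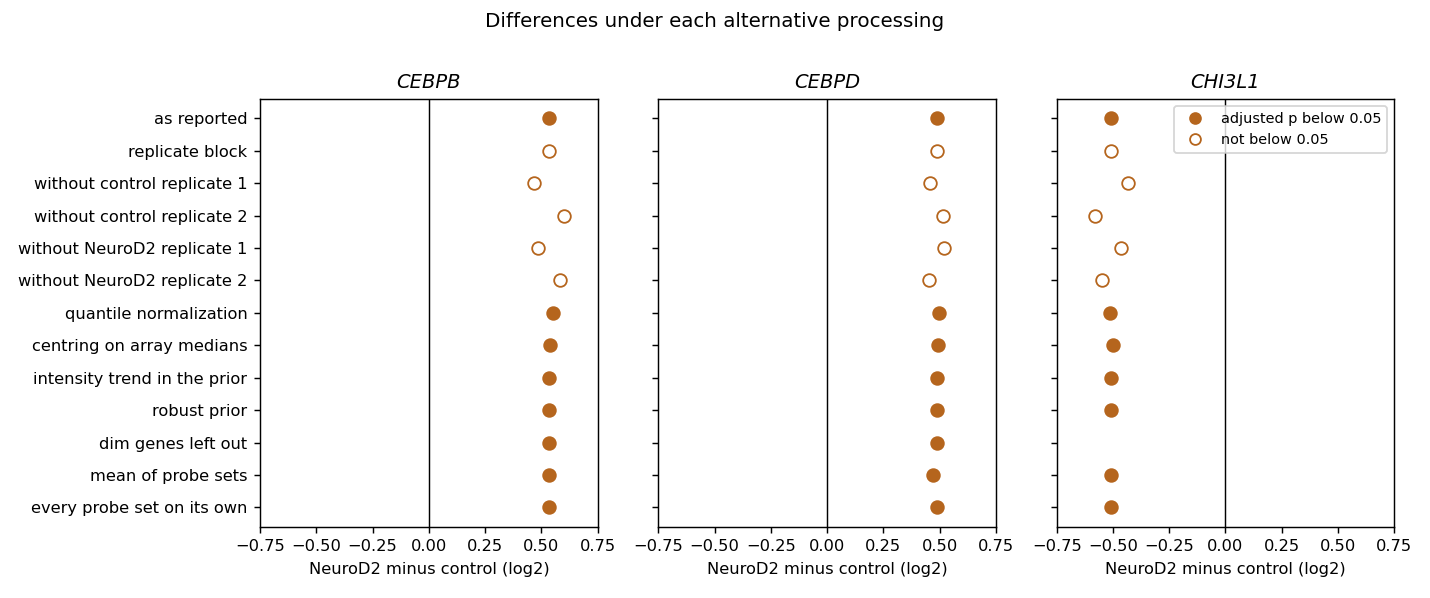
Difference between NeuroD2 and control arrays (log2) for CEBPB, CEBPD and CHI3L1 as reported and under each alternative processing. Filled points passed an adjusted p below 0.05. Every difference keeps its sign, and the points are open where any 1 array is left out or the replicate number is a block; CHI3L1 has no value where dim genes are left out.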

How the data were processed

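RNA of 4 U87MG cultures was measured on 1-colour human PrimeView arrays. The deposited table held 49395 probe sets in values taken to be log2, from their range of 2.65 to 14.3 and medians of 5.98 to 5.99. How the authors made these log2 values (software, background correction, normalization) was not given in the sources used here. Genes came from the platform annotation: 44988 probe sets with 1 symbol were used, and 1832 with several, 2473 with none and 102 controls were left out. Entrez identifiers of 44961 were found in the RefSeq table, and 0 symbols changed. A gene was read on its probe set with the highest mean.

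Groups were compared with limma 3.58.1 (R 4.3.3; lmFit and eBayes, group only, two-sided, 2 residual and 3.84 prior degrees of freedom), over all genes and over all probe sets, with Benjamini-Hochberg adjustment. The fit was run on simulated data with differences larger than those of the called members. That run does not tell how often differences of the members' size are found. An exact permutation test of 2 against 2 cannot go below p = 0.333 and was not used. The number of arrays limits the precision. Scan dates were not used here.

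The named genes were all members, up to 4 genes of each list with the largest absolute difference, the 3 nearest patterns and NEUROD2; others were chosen after their values were seen. Members and lists, which were written from general knowledge of glioblastoma and these pathways, were chosen with earlier results of these data known. Alternatives blocked on the replicate number, dropped 1 array at a time, quantile-normalized or median-centred the arrays, gave limma's prior an intensity trend or a robust estimate, removed dim genes, averaged probe sets per gene, or tested each probe set separately.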

Additional observations from a re-analysis of the deposited data

How the results depend on the processing

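The labels give both groups replicate numbers 1 and 2 without saying what a number shares, and the deviations of same-numbered arrays correlated at 0.08 over genes, so the block is only a check. With the replicate number as a block, CEBPB (0.53, adjusted p = 0.0707), CEBPD (0.49, adjusted p = 0.0605) and CHI3L1 (-0.51, adjusted p = 0.0755) did not pass, so that limma called 0 members (3 at an unadjusted p below 0.05) and 0 of their probe sets (14 at an unadjusted p below 0.05). Over all genes the block left 335 calls, against 864, and over all probe sets 139, against 1361. At an unadjusted p below 0.05, limma with the block had 3921 of the 18132 genes and 8812 of the 44988 probe sets. Of the 27 called genes of the related lists 20 passed with it, the exceptions being CEBPG, FN1, OSMR, SOCS1, SOCS3, TCF4 and TNFAIP6.

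Leaving out 1 array gave 0 to 66 calls over all genes, 0 to 46 over all probe sets, and in limma 0 members (3 or 4 at an unadjusted p below 0.05) and 0 member probe sets (6 to 15). The differences then ran from 0.47 to 0.60 for CEBPB, from 0.45 to 0.52 for CEBPD and from -0.58 to -0.43 for CHI3L1, with adjusted p-values of 0.141 to 0.272. Fewer arrays were fitted in these settings, and a lone array was assumed to vary like the other group. An intensity trend gave 2056 gene calls, 3797 probe set calls and 11 of the members' 24 probe sets. Leaving out dim genes, which tests fewer genes, gave 2081 gene calls and no value for CHI3L1. Quantile normalization, centring, a robust prior, the mean of probe sets and every probe set on its own each called CEBPB, CEBPD and CHI3L1. With the robust prior, however, the CHI3L1 probe set and the CEBPD probe set 11764029_at did not pass among all probe sets. STAT3, BHLHE40, WWTR1 and CD44 passed under none of their 12 alternatives in the fit over genes.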

Other observations

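Proneural genes are the contrasting pattern to the mesenchymal one. Of 19 measured, 0 rose, 2 fell and 17 did not pass by limma (median -0.05; 3 had an unadjusted p below 0.05). MAP2, a neuronal microtubule gene, read 4.59 and 4.56 with NeuroD2, against 5.60 and 6.01 with the control vector (fell by 1.23, adjusted p = 0.0146). The NeuroD2 values were at the level of the deleted gene CDKN2A (4.56 to 4.77), which was read on another probe set. TCF4, an E-protein gene whose product pairs with neurogenic factors, read 8.73 and 8.70 with NeuroD2, against 9.21 and 9.39 with the control vector (fell by 0.58, adjusted p = 0.0293), and all 11 of its probe sets were lower. OLIG2, a progenitor transcription factor gene, read 7.04 and 6.88 with NeuroD2, against 6.64 and 6.49 with the control vector, and did not pass (0.39, adjusted p = 0.0829). With dim genes left out OLIG2 did pass (adjusted p = 0.0219), and the list then had 1 higher and 1 lower call, MAP2 having no value there. STMN1, DLL3 and SOX2 differed by -0.21, 0.17 and 0.13 without passing.

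Of 7 astroglial and glioma markers 1 fell, SLC1A3, a glutamate transporter gene. It read 7.04 and 7.09 with NeuroD2, against 7.45 and 7.50 with the control vector (fell by 0.41, adjusted p = 0.0409), but the mean of its probe sets did not pass (-0.15, adjusted p = 0.303). GFAP (0.24), NES (-0.25) and S100B (0.18) did not pass.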
